A study of Mus musculus with 6 samples.

Results

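The mitochondrial ribosomal protein genes are the nuclear genes named Mrpl or Mrps and a number, and they were taken as every protein-coding gene of the expression table whose symbol begins in that way. The rule gave 78 of the 54532 genes in the table, 49 with large-subunit names and 29 with small-subunit names, on 17 chromosomes. The expression table came from RNA sequencing of MC3T3-E1, a mouse pre-osteoblast line from calvaria that is often used to follow osteoblast differentiation in culture. Control cells (OM, n = 3) were kept in osteogenic medium, and treated cells (OM + Met, n = 3) in osteogenic medium with 0.2 mM metformin, a biguanide drug for diabetes, over 3 days. The osteogenic medium was common to both groups, so the comparison addressed what metformin added to it. The study counts 3 biological replicates per condition, but all 6 libraries came from 1 cell line and nothing in the labels ties them to separate cultures, so the p-values measure the spread between these libraries, which may be technical.

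The mitochondrial ribosome reads the mRNAs encoded by mitochondrial DNA, which specify membrane subunits of the respiratory chain and ATP synthase. Its rRNAs are transcribed inside the organelle, whereas all of its proteins are made in the cytosol and imported. Many of these proteins have bacterial counterparts, and others occur only in mitochondria. The small subunit binds the mRNA and decodes it, and the large subunit joins the amino acids and feeds the growing chain into the inner membrane.

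The promoters of 3 genes are shown because these genes frame the results: Mrpl9 and Mrps36 had the smallest adjusted p in each direction, and the direction of Mrps12, a protein of the decoding site, depended on 1 control library. Mrpl38 had a larger fall than Mrpl9 but had no promoter entry to show. Each run holds the 250 bases before the RefSeq start on GRCm38.p6, written 5′ to 3′ on the gene's strand, and capitals mark a match on either strand to the palindromic core bound by NRF1. The runs lie at chr3:94443086-94443335 (plus strand) for Mrpl9, chr13:100744660-100744909 (minus strand) for Mrps36 and chr7:28741822-28742071 (minus strand) for Mrps12.
Mrpl9: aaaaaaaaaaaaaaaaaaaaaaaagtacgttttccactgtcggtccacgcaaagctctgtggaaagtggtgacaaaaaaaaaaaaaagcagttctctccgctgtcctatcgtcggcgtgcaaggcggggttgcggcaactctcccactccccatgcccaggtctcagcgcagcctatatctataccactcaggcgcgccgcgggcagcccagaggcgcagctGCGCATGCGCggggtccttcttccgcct
Mrps36: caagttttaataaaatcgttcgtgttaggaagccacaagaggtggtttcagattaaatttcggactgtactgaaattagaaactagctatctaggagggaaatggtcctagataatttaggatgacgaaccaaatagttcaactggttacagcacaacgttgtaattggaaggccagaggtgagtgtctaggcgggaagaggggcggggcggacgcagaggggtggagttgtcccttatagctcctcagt
Mrps12: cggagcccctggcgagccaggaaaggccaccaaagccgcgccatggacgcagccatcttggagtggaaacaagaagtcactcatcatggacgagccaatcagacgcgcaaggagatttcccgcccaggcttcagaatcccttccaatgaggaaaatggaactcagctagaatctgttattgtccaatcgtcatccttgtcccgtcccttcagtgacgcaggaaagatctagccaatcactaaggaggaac
The match in Mrpl9 lay between bases -28 and -19 from the start, just outside the gene as the expression table places it, and the runs of Mrps36 and Mrps12 held none.

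RefSeq promoters were found for 69 of the 78 members, and the letters were searched on both strands of 300 bases, 250 before and 50 after each start. The NRF1 letters occurred in 18.8% of these members and in 7.44% of 16497 protein-coding genes. The ETS letters CCGGAAG occurred in 37.7% of members and 13.3% of coding genes, and the YY1 letters AAGATGGCG in 11.6% and 2.25%. The E-box CACGTG (5 of 69 members, 7.25% against 9.2%) and CCAAT (27 of 69, 39.1% against 42.1%) were close to the share of coding genes. The CHOP-ATF4 letters TGATGCAA were in 0 of 69 members and in 1.05% of coding genes. No difference in share was tested. A match describes the sequence and is not a measured binding site.

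Recovered read totals were 18399861 to 20652437 in the OM libraries and 19256672 to 22111790 in the OM + Met libraries. OM replicate 1 stood apart: over all tested genes its log2 levels correlated with OM replicates 2 and 3 at Pearson r = 0.960 and 0.952, while those controls correlated with each other at 0.988 and the OM + Met pairs at 0.992 (a description across genes). Differences between controls followed gene GC content, with Spearman rho of 0.61 and 0.68 for OM replicates 2 and 3 minus OM replicate 1 and 0.29 for OM replicate 3 minus OM replicate 2. Results that rest on this library are therefore given with and without it. Osteoblast markers summed to 11403 to 13402 FPKM (fragments scaled by transcript length and library size) in OM and 8130 to 8622 in OM + Met, with all 9 of 9 detected. The sum follows Spp1 and Ibsp, which fell (log2 fold change -1.50 and -1.60), while Col1a1 (0.93, adjusted p = 0.023) and Col1a2 (0.57, adjusted p = 0.0072) rose and the other 5 did not pass the test. Endothelial and epithelial marker sums stayed at or below 0.131 FPKM in every library, and Acp5, Epcam and Cidec were listed at 0 in all 6. Myeloid and osteoclast markers summed to 245 to 273 FPKM in OM and 150 to 163 in OM + Met, nearly all of it Ctsk, with 2 of 5 above the detection filter, and adipocyte markers to 1.65 to 3.18 and 1.89 to 2.31, with 1 of 5. Of the myeloid markers, Ptprc reached at most 0.0156 FPKM and Csf1r at most 0.0752 FPKM in any library, while Cd68 was at 1.04 to 2.15 FPKM. The part of these shifts in the results was not tested, and in bulk RNA fewer cells of a type and less RNA per cell cannot be told apart.

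Few mitochondrial ribosomal protein mRNAs differed between metformin-treated and control cells beyond the spread of the libraries. Of the 77 members tested, Mrps36 rose and Mrpl9, Mrpl38, Mrpl47 and Mrpl36 fell, and the other 72 did not pass the test (limma on log2(FPKM + 1), Benjamini-Hochberg adjusted p under 0.05). The share called was 6.49% of members, against 22.5% of all 12681 genes tested. By direction, 1 member was called higher against a background of 13.2%, and 4 were called lower against 9.28%. The median log2 fold change was -0.021 over members and 0.0053 over all genes, with 36 members positive and 41 negative and 51 of 77 within 0.2 of 0.

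The 95% interval of the log2 fold change lay within 0.5 of 0 for 48 of 77 members (62.3%, against 41.2% of all genes) and within 1 of 0 for 72 (93.5% against 84.2%). The median interval reached 0.273 to either side of its estimate. In 56 members the groups overlapped, in 6 the OM + Met libraries were all above the controls and in 15 all below, against 23.6% of all genes above and 20.5% below (44.1% in either direction).

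**Figure D1:**
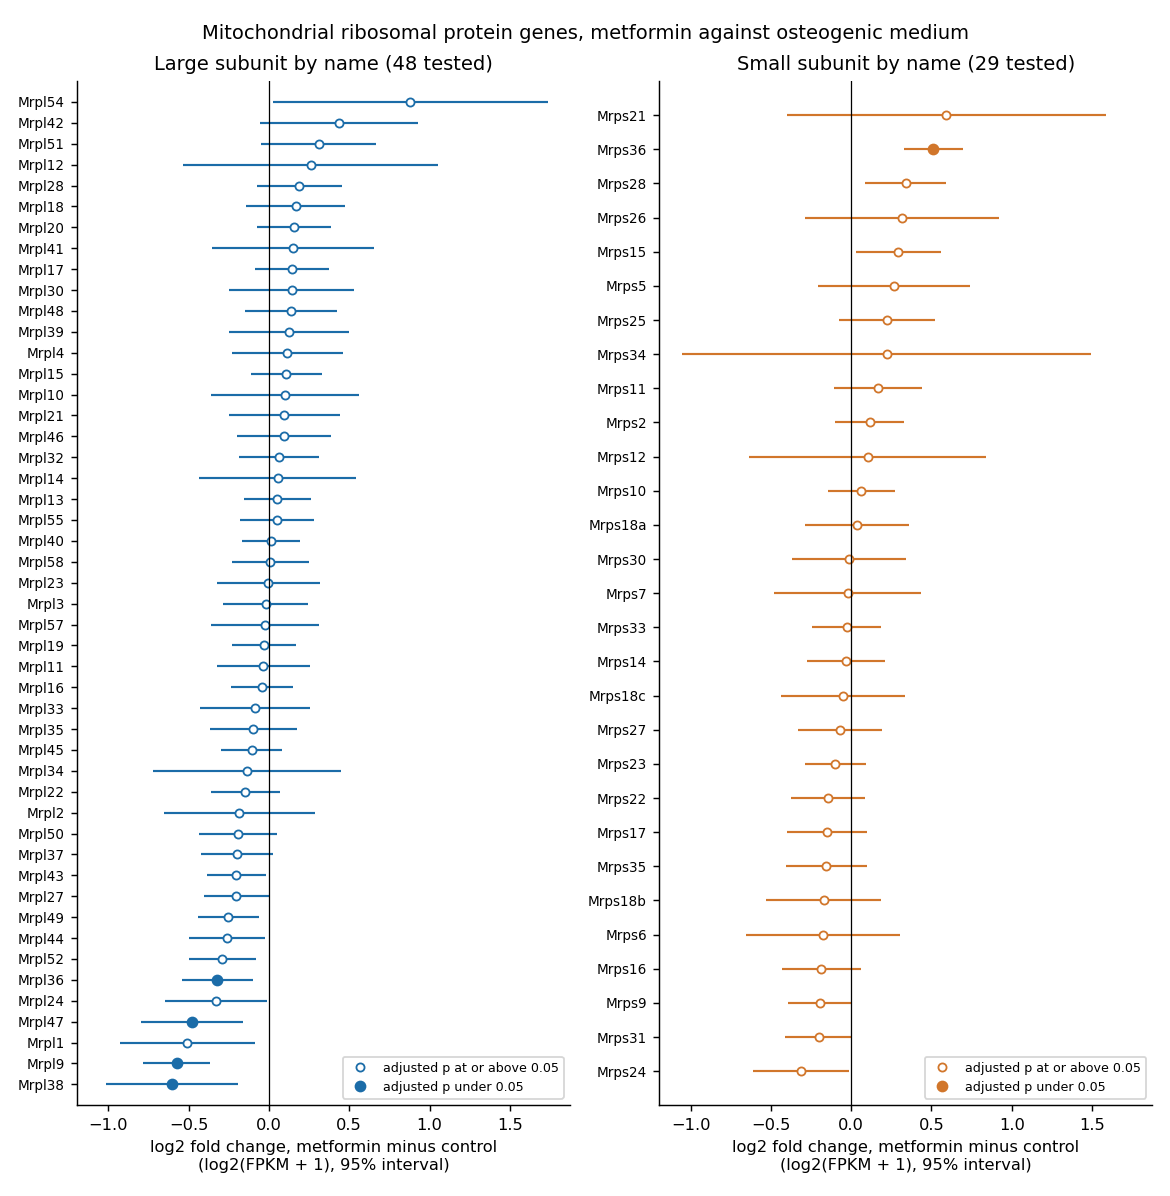
Log2 fold change with its 95% interval for each of the 77 tested members (x axis, OM + Met minus OM, log2(FPKM + 1)), sorted within the large (48) and small (29) subunit by name. Filled points mark the 4 large-subunit members that fell and Mrps36, which rose, and open points mark members that did not pass the test.

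The large subunit held all 4 members that fell with all 6 libraries, out of 48 tested, and none that rose. Its share called lower was 8.33%, against 9.28% of all genes. Mrpl9 encodes bL9m, a protein with a bacterial counterpart. Its levels were 15.7, 17.5 and 17.9 FPKM in OM and 10.6, 11 and 11.7 FPKM in OM + Met, so the groups stood well apart. The mean fell from 17 ± 1.19 to 11.1 ± 0.537 FPKM (SD, n = 3), a log2 fold change of -0.58 ± 0.087 (SE) with an adjusted p of 0.0049. Mrpl9 was called with each library left out in turn, with log2 fold changes from -0.63 to -0.54. The opposite-strand gene that overlaps it, Oaz3, reached at most 0.0886 FPKM.

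Mrpl38 encodes mL38, a large-subunit protein found only in mitochondria. Its levels were 10.2, 16.7 and 15.4 FPKM in OM and 8.95, 8.78 and 8.52 FPKM in OM + Met. Every treated library was below every control, and OM replicate 1 was the control nearest to them. The log2 fold change was -0.60 ± 0.17 (adjusted p = 0.048), the largest fall among members, and -0.80 (adjusted p = 0.000195) without OM replicate 1. With any other library left out, the adjusted p was 0.115 to 0.144. Mrpl38 was the only called member among the 27 with neither an overlapping gene nor a near-identical transcript elsewhere.

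Mrpl47 encodes uL29m, which in bacteria borders the exit of the peptide tunnel. Its levels were 4.34, 3.12 and 3.12 FPKM in OM and 2.17, 1.98 and 2.53 FPKM in OM + Met. The groups did not overlap, and OM replicate 1 was here the highest control. The log2 fold change was -0.48 ± 0.13 (adjusted p = 0.044) and was called without OM replicate 1 (-0.36), with an adjusted p of 0.0558 to 0.162 when any other library was left out. Mrpl47 overlaps Actl6a and Ndufb5, whose log2 fold changes were 0.21 (adjusted p = 0.22) and 0.086 (adjusted p = 0.76).

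Mrpl36 encodes bL36m, a small protein of the large subunit. Its levels were 26.2, 24.5 and 23.4 FPKM in OM and 20.8, 18 and 19.9 FPKM in OM + Met, and the lowest control exceeded the highest treated library. The log2 fold change was -0.32 ± 0.092 (adjusted p = 0.049). It was called without OM replicate 1 (-0.28), and with any other library left out the adjusted p was 0.0538 to 0.20. With voom on recovered reads it was not called (adjusted p = 0.061). The overlapping gene Ndufs6, a complex I subunit, had a log2 fold change of 0.21 (adjusted p = 0.60).

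Among small-subunit names, Mrps36 rose and no member fell with all 6 libraries (1 of 29, 3.45% higher, against 13.2% of all genes). Mrps36 is a member by name only: its protein is known as a component of the mitochondrial alpha-ketoglutarate dehydrogenase complex and is not counted in structures of the ribosome. Its levels were 6.06, 5.39 and 5.75 FPKM in OM and 8.66, 8.5 and 8.62 FPKM in OM + Met, with all treated libraries above all controls. The mean was 1.5 times the control mean, a log2 fold change of 0.51 ± 0.077 (adjusted p = 0.0047), and it was called with each library left out (0.47 to 0.55). Its processed pseudogenes Mrps36-ps1 and Mrps36-ps2 had log2 fold changes of 0.0062 and 0.23 (adjusted p = 0.99 and 0.62) at 0.716 to 4.99 and 0.165 to 1.47 FPKM, so the split of reads among these copies is uncertain.

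**Figure D2:**
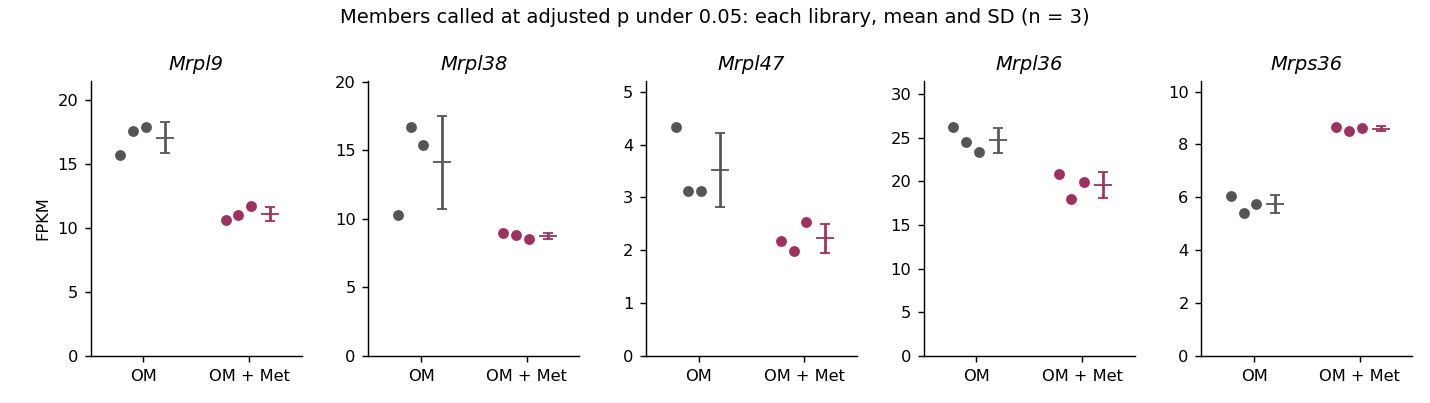
FPKM (y axis, from 0) of the 5 called members in each OM and OM + Met library, with mean and SD (n = 3) beside the points. In every panel the groups do not overlap, and OM replicate 1, the leftmost point, is the lowest control for Mrpl38 and the highest for Mrpl47.

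When members were placed by the subunit their protein occupies, the split was 50 large and 26 small. Mrps30 and Mrps18a carry small-subunit names although their proteins sit in the large subunit. On this count 4 of 50 large-subunit members fell and 0 of 26 small-subunit members were called. Of the 26, 3 had an unadjusted p under 0.05 and 0 were called by voom, against 4540 and 3013 of all 12681 genes. Without OM replicate 1, 3 of the 50 were called higher and 13 lower, and 1 of the 26 higher and 4 lower. Over all genes that fit called 23.4% higher and 20.4% lower. The structural groups had median log2 fold changes of -0.0083 and -0.030. By assigned ancestry, 3 of 46 members classed with a bacterial counterpart fell (median -0.013), against 9.28% of all genes lower. Of 30 members classed as specific to mitochondria, 1 fell (median -0.027). The second class includes Mrps18a and Mrps18b, although they are paralogues of Mrps18c, which is in the first. Without OM replicate 1, 14 of the 46 and 7 of the 30 were called in either direction, against 43.8% of all genes.

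The subunits' summed levels gave no separation of the groups. The large-subunit sum was 733, 916 and 860 FPKM in OM and 822, 808 and 791 FPKM in OM + Met. The small-subunit sum was 339, 426 and 380 FPKM in OM and 395, 384 and 389 FPKM in OM + Met. OM replicate 1 was the lowest library of all for both sums, OM replicate 2 was the highest, and the small-subunit sum of OM replicate 3 lay just under the treated range. Members took 0.225% to 0.269% of the reads in OM and 0.237% to 0.244% in OM + Met.

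The order of the members by level was carried over between the groups (Spearman rho = 0.97 across 77 members, a description). Mrpl34 (65.2 ± 20.8 FPKM), Mrpl43 (57.4 ± 1.6) and Mrpl52 (47.5 ± 3.05) were highest in OM, with Mrpl43 and Mrpl52 within 1 SD of Mrpl34. Mrpl48 (1.78 ± 0.295), Mrps30 (1.97 ± 0.608) and Mrpl32 (2.49 ± 0.337) were lowest, and neighbours in that order did not differ beyond their SDs. The span from lowest to highest was 36.6-fold in mean FPKM. The place of Mrpl52 rested on OM replicate 1. Over OM replicates 2 and 3 its mean of 46.2 FPKM was below the 49.9 FPKM of Mrpl14, and Mrps21 stood at 55.8 and 45.6 FPKM. Mrpl14 was named after its values were seen. Mrpl53 was listed at 0 in all 6 libraries and was not tested, and its locus lies inside Gm42688 on the same strand, which was listed at 0.347 to 0.785 FPKM.

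Members with defined roles mostly showed small differences that did not pass the test. Mrpl3, near the peptidyl transferase centre, had a log2 fold change of -0.021, Mrpl45, which anchors the ribosome at the inner membrane, of -0.11, and Mrpl58, a peptidyl-tRNA hydrolase built into the large subunit, of 0.0078 (adjusted p of 0.91, 0.38 and 0.96). The 95% interval of Mrpl58 was -0.23 to 0.25. Mrpl44, which has an RNase III-like fold, was at 11.3, 13.3 and 14.0 FPKM in OM and 10.3, 10.9 and 10.4 FPKM in OM + Met (log2 fold change -0.26, adjusted p = 0.11). All its treated libraries were below the controls.

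In the small subunit, Mrps2, Mrps16 and Mrps22, whose human counterparts are linked to combined respiratory chain deficiency, had log2 fold changes of 0.11, -0.19 and -0.14 (adjusted p = 0.41, 0.25 and 0.33). The paralogues Mrps18a, Mrps18b and Mrps18c stood at 0.039, -0.17 and -0.049, with adjusted p of 0.87, 0.46 and 0.86, and Mrps30 at -0.013 (adjusted p = 0.96). Just outside the threshold lay Mrpl52 (-0.29, adjusted p = 0.057), Mrps28 (0.34, adjusted p = 0.062) and Mrpl49 (-0.25, adjusted p = 0.065). In Mrpl49 all OM + Met libraries, at 16.6 to 17.9 FPKM, were below the controls at 19.9 to 21.7 FPKM.

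The members varied most in OM replicate 1. The median coefficient of variation over members was 15.2% in OM, 4.85% in OM + Met and 6.07% over OM replicates 2 and 3 alone. The median deviation of members from the other controls was -0.12 in OM replicate 1, 0.13 in OM replicate 2 and -0.0082 in OM replicate 3. OM replicate 1 was below both other controls in 41 members and above both in 23, and its ratio to their mean correlated with GC content (Spearman rho = -0.52 across members, a description). It was under 0.6 of that mean in 10 members, a limit chosen after the values were seen.

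**Figure D3:**
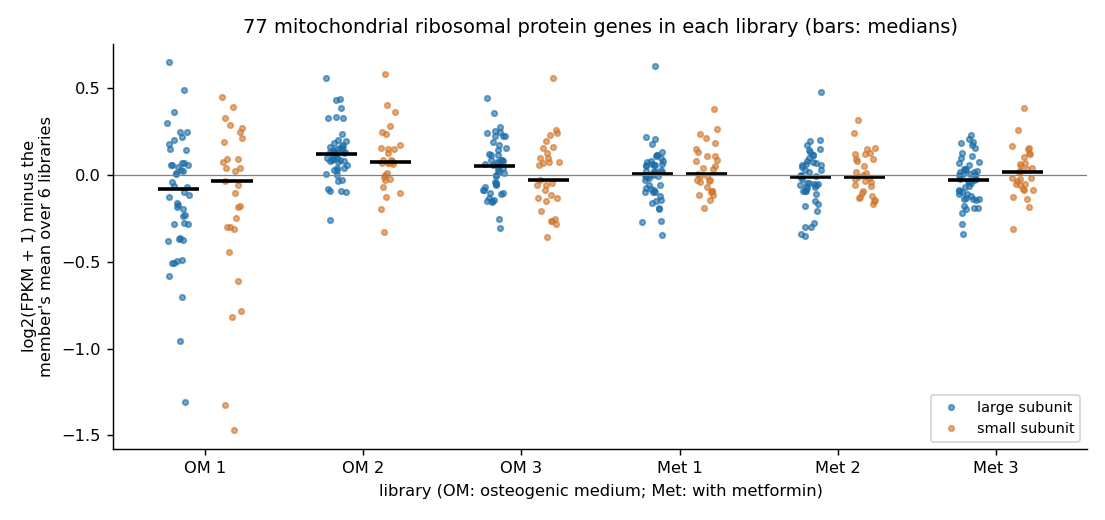
Deviation of each member from its own mean over the 6 libraries (y axis, log2(FPKM + 1)), by library (x axis) and subunit, with bars at the medians. The points of OM 1 spread most widely, with 5 members below -0.8, and its medians lie below 0 in both subunits, while the 3 Met libraries lie close together.

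Mrps34, a mitochondria-specific protein of the small subunit, was the extreme case. It stood at 3.02, 15.7 and 15.5 FPKM in OM and 12.1, 9.98 and 11.1 FPKM in OM + Met, from 114 reads in OM replicate 1 and 680 and 627 in the other controls. OM replicate 1 was below every treated library and the other controls were above every one. The log2 fold change was 0.22 (adjusted p = 0.80) with all libraries and -0.46 (adjusted p = 0.0060) without OM replicate 1. Mrps34 overlaps Nme3, which was listed at 0 in every library, and Mapk8ip3.

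Mrps12, whose promoter is shown above, behaved in the same way. Its levels were 12, 29.4 and 26.5 FPKM in OM and 21.5, 24.1 and 22.9 FPKM in OM + Met, again with OM replicate 1 lowest and the other controls highest. The log2 fold change of 0.10 (adjusted p = 0.85) became -0.28 (adjusted p = 0.023) without that library. Mrps7, a protein of the small subunit's head, moved from -0.022 (adjusted p = 0.95) to -0.25 (adjusted p = 0.014).

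The ribosomal stalk proteins Mrpl10 and Mrpl12 had opposite signs with and without OM replicate 1 and were called in neither fit. Mrpl12, which has also been described as a partner of the mitochondrial RNA polymerase, was at 6.65, 17.6 and 16.6 FPKM in OM and 13.9, 16.1 and 15.9 FPKM in OM + Met. The treated libraries lay between OM replicate 1 and the other controls, and the log2 fold change went from 0.26 (adjusted p = 0.62) to -0.16 (adjusted p = 0.16). Mrpl10 went from 0.098 (adjusted p = 0.76) to -0.13 (adjusted p = 0.11).

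Mrps21 and Mrpl54, named after their values were seen, had the largest positive log2 fold changes. Mrps21 stood at 16.6, 55.8 and 45.6 FPKM in OM and 56.5, 47.1 and 56.8 FPKM in OM + Met, and its 0.59 (adjusted p = 0.36) became 0.078 (adjusted p = 0.62) without OM replicate 1. Mrpl54 stood at 7.24, 18.1 and 20.7 FPKM in OM and 30.6, 27.5 and 22.6 FPKM in OM + Met. All treated libraries were above the controls, and its 0.88 (adjusted p = 0.13) became 0.45 (adjusted p = 0.033).

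Without OM replicate 1, 22 of 77 members were called (28.6%), 5 higher and 17 lower, against 43.8% of all genes, 23.4% higher and 20.4% lower. All 5 members called with 6 libraries were among the 22. With any other library left out, 1 or 2 members were called higher and 1 or 2 lower. The median log2 fold change was -0.043 over members, -0.082 over the large subunit and -0.016 over the small subunit, against 0.0081 over all genes. The calls were 3 higher and 13 lower in the large subunit and 2 higher and 4 lower in the small. The added lower calls included Mrpl34 (-0.43), Mrpl24 (-0.44), Mrps24 (-0.42), Mrpl2 (-0.41) and Mrpl44 (-0.35), and the added higher calls were Mrpl54, Mrps28 (0.33), Mrpl30 (0.33) and Mrpl18 (0.28). Of these, Mrpl24, Mrps24, Mrpl2, Mrpl30 and Mrpl18 were named after their values were seen. The 95% interval lay within 1 of 0 for all 77 members and within 0.5 for 65.

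**Figure D4:**
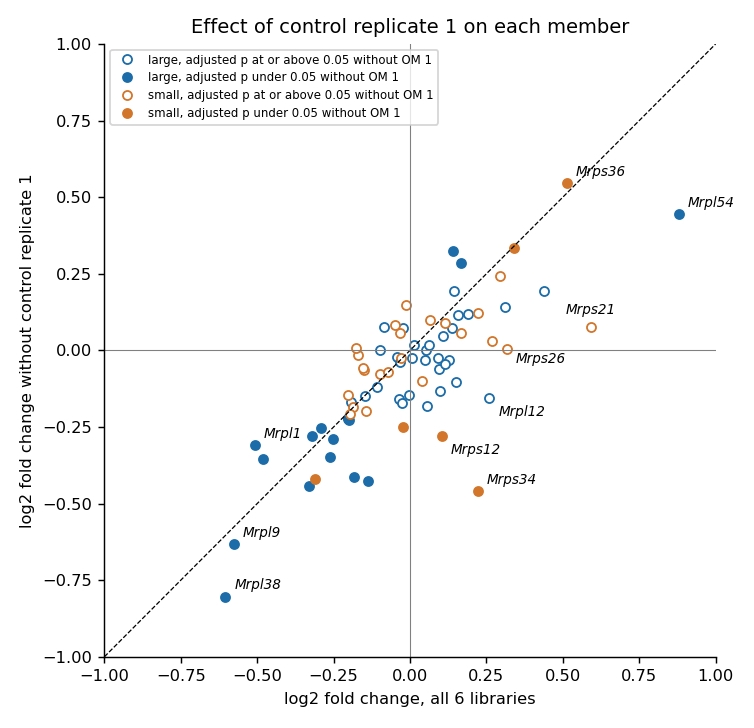
Log2 fold change of each member with all 6 libraries (x axis) and without OM replicate 1 (y axis), with a dashed line at equality. Filled points, 22 in all, were called without that library, and Mrps34 and Mrps12 lie right of 0 on the x axis and below 0 on the y axis.

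A fit that corrected each library for GC content called 17 of 77 members, 2 higher and 15 lower, against 35.4% of all genes, 16.3% higher and 19.2% lower. Of the 17, 13 were also called without OM replicate 1, all with the same sign, which is 59.1% of the 22 and 76.5% of the 17. Mrps34 and Mrps12 were not among them (adjusted p = 0.81 and 0.90 with the correction). Mrpl9, Mrpl38, Mrpl47, Mrpl36 and Mrps36 were called in both.

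Among the mitoribosomal proteins with other names none was called. Dap3, Ptcd3, Chchd1, Aurkaip1 and Gadd45gip1 had log2 fold changes of -0.017, -0.034, 0.080, -0.19 and 0.32. Of the 5, 0 were called by limma, 0 by voom and 0 at an unadjusted p under 0.05. Over all 12681 genes these counts were 2847, 3013 and 4540. Aurkaip1 was called without OM replicate 1 (-0.22, adjusted p = 0.044). Gadd45gip1, at 10.2 ± 5.73 FPKM in OM and 11.3 ± 0.634 in OM + Met, went from 0.32 to -0.22 (adjusted p = 0.087).

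With all 6 libraries, genes for proteins that build and modify the mitoribosome were called lower or not at all. Of 27 assembly and rRNA modification factors tested, 6 fell and none rose (22.2% called, against 22.5% of all genes and 9.28% lower), and the median was -0.17, with 23 of 27 negative. Ddx28, an RNA helicase of large-subunit assembly, fell from 17.1 ± 1.01 to 10.1 ± 0.474 FPKM (SD, n = 3, log2 fold change -0.71, adjusted p = 0.0017). Rpusd4, a pseudouridine synthase, fell from 5.02 ± 0.414 to 3.14 ± 0.0294 FPKM (-0.54, adjusted p = 0.0054). Ddx28 and Rpusd4 were called with each library left out, while the count for the list ran from 2 without OM + Met replicate 2 to 13 without OM replicate 1, with 3 or 4 otherwise. The 13 were 1 higher and 12 lower, 48.1% of the list. Over all genes that fit called 43.8%, 23.4% higher and 20.4% lower.

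Ngrn, which acts with the large-subunit rRNA, fell as well (-0.50, adjusted p = 0.0078) and was called in 5 of the 6 fits that left out a library. The rRNA ribose methyltransferases Mrm1 (-0.54, adjusted p = 0.030) and Mrm2 (-0.51, adjusted p = 0.016) and the assembly factor Mterf4 (-0.33, adjusted p = 0.041) also fell. They were called in 1, 3 and 1 of those 6 fits, and all were called without OM replicate 1.

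Of 14 translation factors tested, 1 rose and 1 fell (14.3%, against 22.5% of all genes called). Gfm1, the elongation factor that moves the ribosome along the mRNA, rose from 10.3 ± 0.880 to 13.8 ± 0.419 FPKM (log2 fold change 0.39, adjusted p = 0.021). Mtif3, an initiation factor of the small subunit, fell from 3.61 ± 0.514 to 2.06 ± 0.312 FPKM (-0.59, adjusted p = 0.016). Each was called in 3 of the 6 fits that left out a library, and the count for the list was 0 without OM + Met replicate 1 or 2, 6 without OM replicate 1 and 1 or 2 otherwise. The 6 were 2 higher and 4 lower, 42.9% of the list, against 43.8% of all genes in that fit. Of 20 aminoacyl-tRNA synthetases and amidotransferase subunits, Hars2 (-0.54, adjusted p = 0.011) and Tars2 (-0.51, adjusted p = 0.020) fell and none rose (10%, against 22.5% of all genes). In this list 0 were called without OM + Met replicate 1 or 2. The count was 4 without OM replicate 1 (20%, 1 higher and 3 lower, against 43.8% of all genes). Hars2 and Tars2 were named after their values were seen.

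The RNAs that the mitoribosome reads and contains were lower with metformin in most cases. Of the 13 mRNAs encoded by mitochondrial DNA, 11 fell and none rose (84.6%, against 9.28% of all genes lower, median log2 fold change -1.61). All 13 were called lower without OM replicate 1 (median -1.38), against 20.4% of all genes. Their share of reads was 6.21% to 9.66% in OM and 2.61% to 3.02% in OM + Met. The small-subunit rRNA mt-Rnr1 fell, with a log2 fold change of -1.15 (adjusted p = 0.0079), and the large-subunit rRNA mt-Rnr2 had a log2 fold change of -0.67 (adjusted p = 0.26). Levels of mt-Rnr2 were 1465, 685 and 484 FPKM in OM and 471, 445 and 575 FPKM in OM + Met. Its groups overlapped, and OM replicate 1 was far above every other library. Cytosolic ribosomal proteins had a median of 0.11 with 1 of 79 higher and 1 lower, and without OM replicate 1 there were 15 higher and 3 lower. Nuclear-encoded respiratory chain subunits had a median of 0.092 with none of 77 higher and 2 lower, and without OM replicate 1 there were 13 higher and 8 lower. Over all genes, 13.2% were called higher and 9.28% lower with all 6 libraries, and 23.4% and 20.4% without OM replicate 1. The share called in either direction without that library was 22.8% for cytosolic ribosomal proteins and 27.3% for respiratory chain subunits, against 43.8% of all genes. The differences between these lists were not tested.

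**Figure D5:**
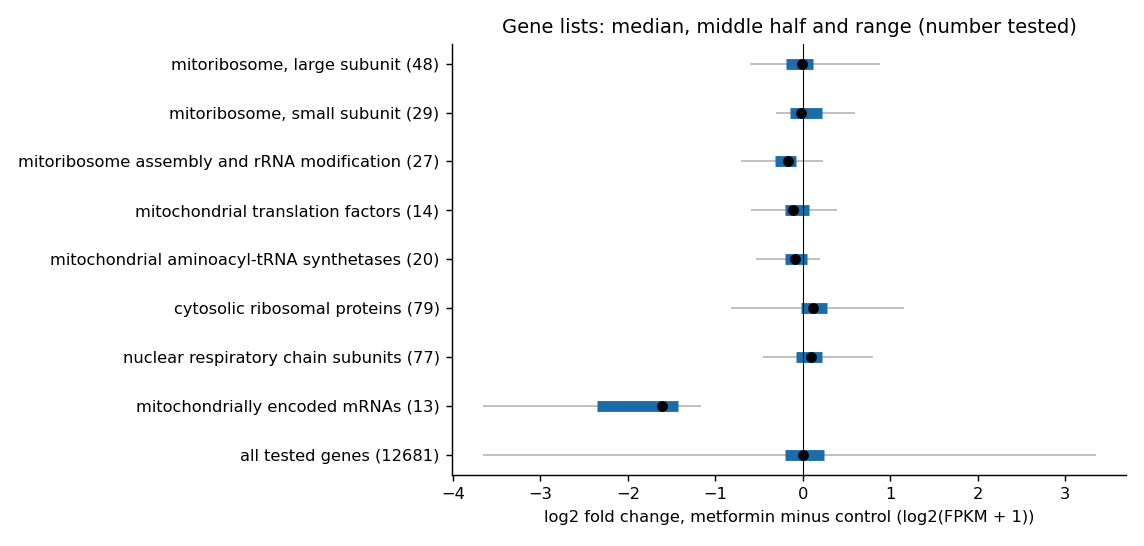
Log2 fold change (x axis, OM + Met minus OM) for gene lists of the mitochondrial translation system and comparison lists, with the number of genes tested in brackets. Points are medians, thick bars the interquartile range and thin lines the full range; both subunits are centred near 0, as are all tested genes, and the mitochondrially encoded mRNAs lie wholly below -1.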

How the data were processed

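RNA of MC3T3-E1 cells was sequenced by the authors in 6 samples, 3 in osteogenic medium and 3 with metformin. The deposited table holds FPKM per gene, which the authors made from read counts, gene length and a library scale, and the study itself tested counts with DESeq2. The submitters' processing notes name Bowtie 0.12.2 and mouse builds mm8 and mm9 without their role, whereas gene coordinates in the table were those of GENCODE M21 (GRCm38) for 73 of 78 members. The strand setting of the counting is not given in the sources used here, so reads of overlapping genes cannot be told apart.

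Reads were recovered from FPKM and gene length, and 100% of values came out whole within 0.01 read. Tested members had 109 to 1721 reads per library (median 605). FPKM depends on library scale, so a large shift in a few abundant RNAs can move the level of other genes. Genes whose mean reached 0.5 FPKM were tested with limma 3.58.1 (R 4.3.3, trend) on log2(FPKM + 1), over the whole table, with Benjamini-Hochberg adjustment. This scale understates changes of low genes. An exact permutation test of 3 against 3 libraries cannot give a two-sided p under 0.1 and was not used. Code was tested on simulated data.

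The alternatives tried were voom on recovered reads, a smaller pseudocount (0.1), library scaling to total reads, testing without the FPKM filter, a minimum of 10 reads per library, a replicate block, a GC correction (spline with 5 degrees of freedom), both together, and leaving out each library. Near-identical transcripts share 95% identity over 200 bases (BLAST+ 2.17.0). Members and gene lists were chosen with earlier results of these data known. The text names called members, members just outside the threshold, the 3 highest and lowest by control level and members under the filter. It also names members listed for their role, the other mitoribosomal proteins and called factors. A gene added after its values were seen is marked as such.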

Additional observations from a re-analysis of the deposited data

How the results depend on the processing

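Mrpl9 and Mrps36 kept their direction and call in all 14 alternatives. Apart from the fits that left out a library, Mrpl38, Mrpl47 and Mrpl36 were called in 5, 6 and 4 of the other 8 alternatives. Of the 77 tested members, 30 changed sign under some alternative, 0 of which were called with all 6 libraries. Leaving out 1 library gave 1 to 5 members called higher and 1 to 17 lower, 1 to 16 in the large and 1 to 6 in the small subunit, 0 to 6 translation factors, 2 to 13 assembly factors, 0 to 4 aminoacyl-tRNA synthetases and 0 to 1 of the proteins with other names, and over all genes 938 to 2969 higher and 495 to 2590 lower. The highest counts for members came without OM replicate 1. Mrps12 and Mrps34 reversed without OM replicate 1, ranging over the left-out libraries from -0.28 to 0.33 and from -0.46 to 0.57 (log2 fold change). The median log2 fold change of members ranged from -0.043 without OM replicate 1 to 0.045 without OM replicate 2. The cause was not tested.

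With no filter on low values, 1 member was called lower, 1 in the large subunit, with 1 translation factor and 1 synthetase. Over all genes 1432 were then called higher and 884 lower, against 1670 and 1177 with the filter. With the GC correction, 2 members were called higher and 15 lower, 12 in the large and 5 in the small subunit. That fit also called 5 translation factors, 13 assembly factors and 5 synthetases, and over all genes 2062 higher and 2433 lower. The labels do not say whether same-numbered libraries belong together. Their deviations correlated at -0.053, 0.00027 and -0.055, which cannot exclude a pairing with so few libraries. With the replicate block, 1 member was called lower, 1 in the large subunit, with 1 translation factor. Over all genes the block fit called 1161 higher and 698 lower. When the replicate block was combined with the GC correction, 2 members were called higher and 8 lower, 8 in the large and 2 in the small subunit. The combined fit also called 1 translation factor and 10 assembly factors, and over all genes 1703 higher and 1888 lower. The cause of these shifts was not tested.

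With 3 libraries a group and members at 109 to 1721 reads, changes under the interval widths given above were not resolved. One library sets much of the control spread.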
